A study of Mus musculus with 8 samples.

Results

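The 45 genes described here copy the chromosomes and then divide them. They were chosen by name: 22 genes of S phase (the helicase, origin and polymerase proteins, the nucleotide enzymes and the E cyclins) and 23 genes of mitosis (Cdk1 and its cyclins, mitotic kinases, centromere and spindle proteins). All 45 were found among the 52636 gene IDs of the deposited files, and all 45 were among the 11433 genes tested, which had at least 1 TPM in 4 or more libraries. TPM is scaled for transcript length and for the size of the library, so genes and libraries can be set side by side. It is a share of the RNA of each library, so a gene's TPM also depends on the cell mixture.

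The RNA came from mixed co-cultures of mouse cells of strain C57BL/6. Colon cancer organoids with a tdTomato reporter had been injected into the spleen, and cancer cells from the resulting liver metastases were sorted by the proteins tdTomato and CD4, the latter a mark of helper T cells. Trogocytosis is the transfer of membrane with its proteins from one living cell to another. Cancer cells sorted as trogocytic (4 libraries), or as non-trogocytic as the control (4 libraries), were then kept for 5 days with splenocytes of Actin-GFP reporter mice at 50 splenocytes per cancer cell. The organoid source, the reporter genes, the splenocytes and the culture were shared by both groups. Nothing in the labels tells whether the 4 replicates of a group had separate animals, sorts or cultures, and p-values therefore speak to library-to-library spread that could be technical.

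Cells copy their DNA in S phase and separate the copies in mitosis. The helicase subunits are loaded on origins in G1 by Cdc6 and Cdt1, Cdc45 and the GINS complex switch the helicase on, and the polymerases then follow with their clamp. Mitosis is entered through Cdk1 with cyclin B, the chromosomes are carried by centromere proteins and kinesins, and the cyclins are destroyed at the end through Cdc20 and Ube2c. Cells at rest hold little RNA of these genes, so in tissue they are widely read as marks of dividing cells. In a bulk mixture, fewer dividing cells of a type and less RNA per cell cannot be told apart, and whether the RNA came from cancer cells or splenocytes was not measured.

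S phase genes are known to be controlled through E2F sites in their promoters, and mitosis genes through a CHR (cell cycle genes homology region) paired with CCAAT boxes. The promoters are shown because the members share these words beyond the names by which they were chosen. Promoter sequences from 250 bases before to 50 bases after the start were taken from RefSeq (GRCm38.p6) and matched 38 of the 45 members by symbol, with 41 promoters because some genes have several starts. Mcm4, Gins2, Ccne2, Ccna2, Aurkb, Kif20a and Tpx2 were not matched. The words searched on both strands were TTTCCCGC, TTTGGCGC, TTTCGCGC and TTTGCCGC for E2F, TTTGAA for CHR, and CCAAT. An E2F word stood in 7 of 21 S phase promoters (33.3%), in 1 of 20 mitosis promoters (5.0%, Cdk1) and in 2.27% of all 32851 promoters. The 7 S phase genes with it were Cdc6, Cdt1, Mcm3, Mcm5, Mcm6, Mcm7 and Pola1. Mcm2, Cdc45 and Prim1 had no E2F word, and Mcm7 also had a promoter without it. The CHR word stood in 15 of 20 mitosis promoters (75.0%), in 3 of 21 S phase promoters (14.3%) and in 17.9% of all. CCAAT stood in 18 of 20 mitosis promoters (90.0%), in 12 of 21 S phase promoters (57.1%) and in 37.4% of all. Both words together were found in 15 mitosis promoters (75.0%), in 2 S phase promoters (9.52%) and in 6.95% of all. A match is a string of letters in this window and not a measured binding site, and a missing match says nothing of the factor.

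**Figure D1:**
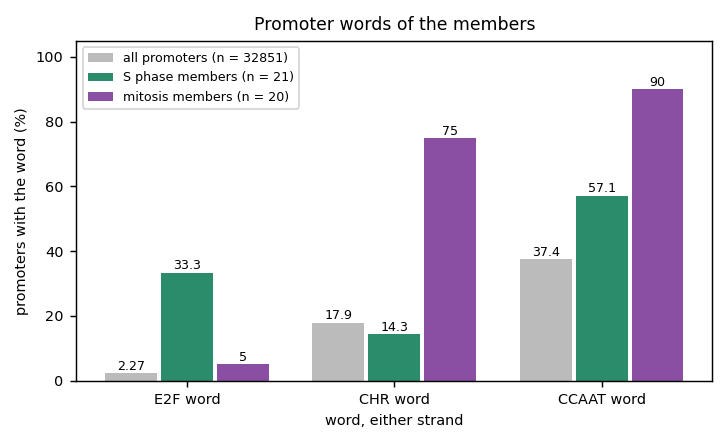
Share of promoters (%, vertical axis from 0) that hold an E2F, CHR or CCAAT word on either strand, for all RefSeq promoters (grey), S phase members (green) and mitosis members (purple). E2F words were most frequent among S phase members at 33.3%, and CHR words among mitosis members at 75.0%.

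The 250 bases before the start are printed for the 2 S phase and the 2 mitosis members with the highest mean TPM whose promoter holds any of the words. Mcm6 was added after its values were seen, as the S phase member with the highest TPM among those with an E2F word. Each run is read 5′ to 3′ on the gene's own strand, with the words in capitals (on the other strand CCAAT reads as ATTGG, the CHR word as TTCAAA and the second E2F word of Mcm6 as GCGCGAAA). Pcna lies at chr2:132253181-132253430 (minus strand), Rrm2 at chr12:24708004-24708253 (plus), Mcm6 at chr1:128359706-128359955 (minus), Cenpa at chr5:30666636-30666885 (plus) and Top2a at chr11:99024190-99024439 (minus). For Pcna, Rrm2 and Cenpa the gene models of the deposited files begin upstream of the RefSeq start.
Pcna: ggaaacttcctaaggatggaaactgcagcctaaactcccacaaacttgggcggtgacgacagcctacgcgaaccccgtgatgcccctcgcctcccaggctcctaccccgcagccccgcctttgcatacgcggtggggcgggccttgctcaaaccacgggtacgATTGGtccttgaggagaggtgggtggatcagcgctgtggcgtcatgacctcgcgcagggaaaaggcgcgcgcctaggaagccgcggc
Rrm2: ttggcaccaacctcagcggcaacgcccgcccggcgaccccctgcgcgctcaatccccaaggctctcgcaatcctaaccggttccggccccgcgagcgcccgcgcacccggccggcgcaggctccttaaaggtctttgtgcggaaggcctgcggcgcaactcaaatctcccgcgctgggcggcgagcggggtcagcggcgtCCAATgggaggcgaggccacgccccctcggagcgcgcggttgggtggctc
Mcm6: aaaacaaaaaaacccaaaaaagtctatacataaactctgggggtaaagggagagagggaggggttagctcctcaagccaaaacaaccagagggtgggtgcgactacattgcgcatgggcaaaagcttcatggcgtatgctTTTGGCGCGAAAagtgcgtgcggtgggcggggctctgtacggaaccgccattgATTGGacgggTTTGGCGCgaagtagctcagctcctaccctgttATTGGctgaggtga
Cenpa: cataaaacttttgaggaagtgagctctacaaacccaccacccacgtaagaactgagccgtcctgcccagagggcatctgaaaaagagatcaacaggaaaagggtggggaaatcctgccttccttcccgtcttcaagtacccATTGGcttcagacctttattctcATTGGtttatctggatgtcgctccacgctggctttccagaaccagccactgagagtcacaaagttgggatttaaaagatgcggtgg
Top2a: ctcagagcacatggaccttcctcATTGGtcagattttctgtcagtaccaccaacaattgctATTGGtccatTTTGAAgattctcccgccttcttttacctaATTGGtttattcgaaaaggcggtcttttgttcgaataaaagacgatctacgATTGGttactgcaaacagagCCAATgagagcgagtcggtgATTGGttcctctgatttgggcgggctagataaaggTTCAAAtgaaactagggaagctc
Pcna and Rrm2 each held a single CCAAT word, 87 and 50 bases before the start. Mcm6 held 3 E2F words, at 110, 106 and 47 bases before the start, the first and second of which overlap, and a CCAAT word at 57 and at 14 bases. Top2a held 6 CCAAT words between 227 and 58 bases before the start, and CHR words at 179 and 23 bases. Cenpa held CCAAT words at 109 and 86 bases before the start, and its CHR word begins 16 bases after the start, outside the printed run.

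Each library held 1.39 to 1.84 Gb of aligned bases, which is 6.93 to 9.21 M read pairs of 200 bases if every pair aligned in full. About 5.83 to 8.45 read pairs then lie behind 1 TPM of a 2 kb transcript, so members at a few TPM, such as Cdt1, Ung, Mcm2 and Bub1b, rest on few reads. Both labelled cell kinds were present in all 8 libraries. The summed TPM of 16 colon epithelium genes was 3885 to 10260 in the non-trogocytic and 6318 to 7802 in the trogocytic libraries, with Cdx1 listed at 0 in all 8. The summed TPM of 12 leukocyte genes was 928 to 5525 and 1416 to 4104. All 6 hepatocyte genes were listed above 0 in non-trogocytic replicate 3 alone, with a sum of 148 TPM.

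Nearly all members were well expressed. The median member stood at 67.4 TPM over the 8 libraries (S phase 49.9 TPM, mitosis 80.5 TPM) against 11.4 TPM for all tested genes. The highest was Birc5 (survivin, the chromosomal passenger subunit) at 536 TPM, followed by Pcna at 386 TPM, Cenpa at 347 TPM and Rfc4 at 294 TPM. The lowest were Cdt1 at 4.20 TPM, Ung at 5.21 TPM, Mcm2 at 6.47 TPM and Bub1b at 6.72 TPM. Mki67, the gene of the Ki-67 antigen, stood at only 9.71 TPM, the fifth lowest of the members.

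None of the 45 members was called different between trogocytic and non-trogocytic co-cultures by limma (adjusted p 0.9998 for each of the 45), where 0.0525% of all tested genes were called (6 of 11433). At an unadjusted p below 0.05 there was 1 member, Mcm2, lower in the trogocytic co-cultures, against 4.59% of all tested genes in either direction. Calls of lower genes made up 0.035% of all tested genes. For no member did the 4 trogocytic values lie wholly above or below the 4 non-trogocytic ones, against 2.68% of all tested genes. The median log2 difference, trogocytic minus non-trogocytic on the log2(TPM + 1) scale, was −0.0099 over the members (22 above 0, 23 below) and 0.007 over all tested genes. It was 0.020 for S phase (11 above, 11 below) and −0.080 for mitosis (11 above, 12 below). Within a group, the members differed most between non-trogocytic replicates 1 and 2. The median SD of log2(TPM + 1) over the 8 libraries was 0.70 for S phase and 0.45 for mitosis, against 0.65 for all tested genes. The leukocyte mixture was not the same in direction throughout. All 11 tested T cell genes were higher in the trogocytic co-cultures (median 0.91, 1 at an unadjusted p below 0.05 by limma). All 9 tested macrophage and monocyte genes were lower (median −0.80, 4 at an unadjusted p below 0.05). None of these was called, and whether they bear on the members was not tested.

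**Figure D2:**
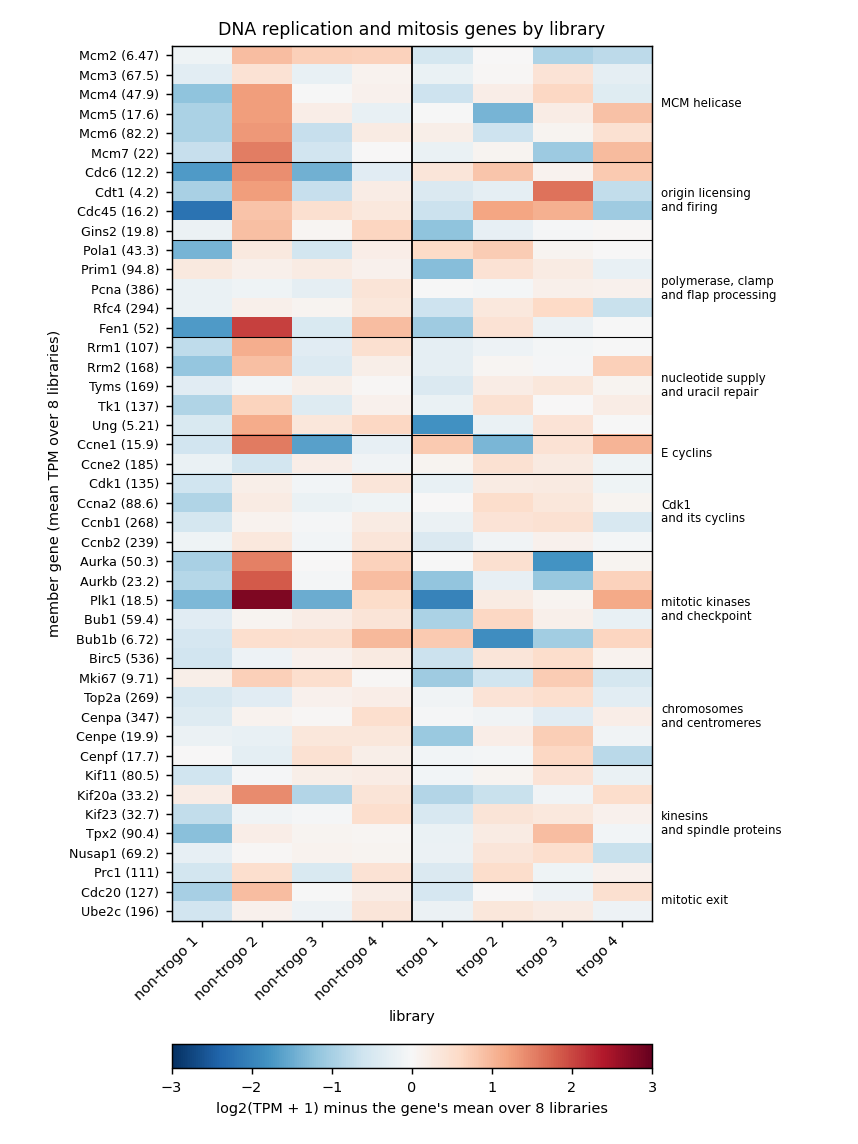
Level of each member (one line per gene, with its mean TPM in brackets, grouped by role) in each of the 8 libraries (columns), as log2(TPM + 1) minus the gene's own mean; red is above and blue below that mean. Non-trogocytic replicate 1 is mostly blue, non-trogocytic replicate 2 is red for most S phase genes, and the 4 trogocytic columns do not share a color.

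Among the 6 subunits of the MCM helicase ring, all 6 were highest in non-trogocytic replicate 2. Mcm2 (chr6:88883474-88898780, minus strand) stood at 5.14, 11.8, 10.0 and 9.90 TPM in non-trogocytic replicates 1 to 4 and at 3.64, 5.80, 2.55 and 2.91 TPM in trogocytic replicates 1 to 4. Each of the 3 non-trogocytic replicates from 2 to 4 lay above every trogocytic library, and non-trogocytic replicate 1 lay among the trogocytic values. The means were 9.21 ± 2.84 TPM against 3.73 ± 1.46 TPM (SD, n = 4 each), a log2 difference of −1.11 ± 0.45 (SE). Mcm6 stood at 37.0, 182, 44.6 and 86.4 TPM in non-trogocytic replicates 1 to 4 and at 82.2, 47.4, 77.2 and 100.4 TPM in trogocytic replicates 1 to 4. Its high library was non-trogocytic replicate 2, the others overlapped, and the log2 difference was 0.050 ± 0.46. Mcm4 stood at 17.8, 102, 42.0 and 46.6 TPM in non-trogocytic replicates 1 to 4 and at 27.1, 48.7, 66.1 and 33.0 TPM in trogocytic replicates 1 to 4, again with the highest value in non-trogocytic replicate 2 and the lowest in non-trogocytic replicate 1. Mcm5 ranged over 5.08 to 37.4 TPM and Mcm7 over 8.06 to 55.0 TPM, with log2 differences of −0.14 ± 0.59 and −0.15 ± 0.57. Mcm3 was the steadiest subunit, at 53.1 to 90.4 TPM, with means of 67.9 ± 17.0 TPM against 67.0 ± 14.7 TPM. The ring holds 1 copy of each subunit, and Mcm6 and Mcm3 averaged 82.2 and 67.5 TPM and Mcm2 6.47 TPM.

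The 4 proteins that license and fire origins were low and variable. Cdc6, the loader of the helicase, stood at 2.27, 26.8, 2.89 and 7.33 TPM in non-trogocytic replicates 1 to 4 and at 12.6, 18.0, 10.5 and 17.3 TPM in trogocytic replicates 1 to 4. Of the members it had the largest difference in favor of the trogocytic co-cultures, 1.05 ± 0.65 on the log2 scale, with means of 9.81 ± 11.5 TPM against 14.6 ± 3.66 TPM. The 4 trogocytic values lay close together, and they lay between the highest non-trogocytic value and the other 3. Cdc45, which joins the helicase at firing, stood at 1.93, 23.5, 17.9 and 15.9 TPM in non-trogocytic replicates 1 to 4 and at 7.72, 29.7, 27.6 and 5.51 TPM in trogocytic replicates 1 to 4, so low and high values occurred in both groups. Cdt1, the partner of Cdc6, ranged over 1.12 to 11.9 TPM, and its highest value was in trogocytic replicate 3. Gins2, a subunit of the GINS complex, had means of 24.8 ± 8.85 TPM against 14.8 ± 5.21 TPM and a log2 difference of −0.72 ± 0.40.

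Of the fork proteins, Pcna, the sliding clamp, was the steadiest of all members between libraries. It stood at 331, 352, 316 and 499.6 TPM in non-trogocytic replicates 1 to 4 and at 378, 369.9, 426 and 420.5 TPM in trogocytic replicates 1 to 4. The groups overlapped throughout, with means of 374 ± 84.7 TPM against 399 ± 28.9 TPM and a log2 difference of 0.11 ± 0.18. Rfc4, a subunit of the clamp loader, ranged over 176 to 424 TPM, with both its highest and its lowest value in trogocytic libraries. Pola1, the catalytic subunit of polymerase alpha, stood at 14.4, 49.1, 26.9 and 45.9 TPM in non-trogocytic replicates 1 to 4 and at 59.8, 68.4, 42.0 and 39.8 TPM in trogocytic replicates 1 to 4. It was lowest in non-trogocytic replicate 1 and its log2 difference was 0.72 ± 0.40. Prim1, the primase, was within 99.0 to 109.8 TPM in all 4 non-trogocytic libraries and ranged from 36.6 to 121 TPM in the trogocytic ones. Fen1, the flap endonuclease that trims Okazaki fragments, stood at 11.0, 162, 27.6 and 73.5 TPM in non-trogocytic replicates 1 to 4 and at 17.6, 52.1, 34.0 and 38.0 TPM in trogocytic replicates 1 to 4. It had a high value in non-trogocytic replicate 2, a low one in replicate 1 of either group, and means of 68.5 ± 67.6 TPM against 35.4 ± 14.2 TPM.

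Fen1 (chr19:10199132-10204169, minus strand) shares most of its exonic bases with another expressed gene. On the other strand Gm10143 covers 78.8% of its exonic bases and was listed at a mean of 32.1 TPM, and Tmem258 covers 5.37% at 471 TPM. The strand setting of the counting is not given in the sources used here, so reads of these genes and of Fen1 cannot be told apart. In all, 11 members share exonic bases with another gene listed at a mean of 1 TPM or more, and in 5 of them (Mcm7 with Cops6, Cdc45 with Ufd1, Fen1 with Tmem258, Ccna2 with Exosc9, Nusap1 with Oip5) that gene stood at or above the member's own level. Processed copies were low beside their parents, with Pcna-ps2 at 5.70 TPM and Ccnb1-ps at 1.03 TPM.

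Of the 4 enzymes that supply nucleotides, 3 were highest in non-trogocytic replicate 2 and lowest in non-trogocytic replicate 1. Rrm2, the regulated subunit of ribonucleotide reductase, stood at 69.0, 291, 117 and 175 TPM in non-trogocytic replicates 1 to 4 and at 128, 159.9, 152 and 256 TPM in trogocytic replicates 1 to 4. The trogocytic values all lay inside the non-trogocytic range. Rrm1, the large subunit, ranged over 58.0 to 213 TPM and Tk1, thymidine kinase, over 69.1 to 207 TPM, with the same extremes. Their log2 differences were 0.24 ± 0.40 for Rrm2, −0.24 ± 0.36 for Rrm1 and 0.25 ± 0.32 for Tk1. Tyms, thymidylate synthase, was steadier, at 132, 158, 188 and 171 TPM in non-trogocytic replicates 1 to 4 and at 124, 194, 212 and 175 TPM in trogocytic replicates 1 to 4, and did not share the high value of non-trogocytic replicate 2. Ung, which removes uracil from DNA, was low at 6.71 ± 3.26 TPM against 3.70 ± 2.36 TPM, and its lowest value was 0.523 TPM in trogocytic replicate 1.

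The E cyclins, which drive Cdk2 at the entry to S phase, moved apart between libraries. Ccne1 stood at 7.83, 38.1, 3.26 and 10.1 TPM in non-trogocytic replicates 1 to 4 and at 21.7, 4.09, 16.7 and 25.7 TPM in trogocytic replicates 1 to 4. Ccne2 stood at 158, 123, 207 and 168 TPM in non-trogocytic replicates 1 to 4 and at 190.5, 248, 219.5 and 165 TPM in trogocytic replicates 1 to 4. Non-trogocytic replicate 2 held the highest Ccne1 and the lowest Ccne2 of the 8 libraries. The log2 differences between the groups were 0.43 ± 0.72 and 0.33 ± 0.21.

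Of the mitosis members, Cdk1 and its cyclins were high and varied little. Cdk1 stood at 87.0, 149, 125 and 169.9 TPM in non-trogocytic replicates 1 to 4 and at 113, 156, 161 and 121 TPM in trogocytic replicates 1 to 4. Ccnb1, the cyclin of mitotic entry, stood at 181, 278, 255 and 309 TPM in non-trogocytic replicates 1 to 4 and at 231, 344, 361 and 187 TPM in trogocytic replicates 1 to 4. Both were lowest in non-trogocytic replicate 1, and both groups overlapped. Ccnb2 had means of 258 ± 44.7 TPM against 219 ± 34.0 TPM. Ccna2, the cyclin of S and G2 phase, stood at 45.4, 101, 74.6 and 77.9 TPM in non-trogocytic replicates 1 to 4 and at 85.9, 124, 109 and 91.2 TPM in trogocytic replicates 1 to 4. It had the largest difference in favor of the trogocytic co-cultures among the mitosis members, with means of 74.8 ± 22.9 TPM against 102 ± 17.3 TPM and a log2 difference of 0.49 ± 0.27. Exosc9, listed at 252 TPM, covers 12.5% of the exonic bases of Ccna2 on the other strand.

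Among the mitotic kinases was the member that varied most between libraries, Plk1. Plk1 (chr7:122159439-122169873, plus strand), which acts from mitotic entry to cytokinesis, stood at 3.38, 77.5, 3.01 and 15.5 TPM in non-trogocytic replicates 1 to 4 and at 1.77, 12.2, 10.9 and 23.5 TPM in trogocytic replicates 1 to 4. Its value in non-trogocytic replicate 2 was 3.30 times the next highest and 43.8 times the lowest. Aurkb, the kinase of the chromosomal passenger complex, stood at 9.36, 65.7, 17.0 and 34.5 TPM in non-trogocytic replicates 1 to 4 and at 7.22, 14.6, 7.46 and 29.3 TPM in trogocytic replicates 1 to 4. Aurka, the kinase of the spindle poles, stood at 20.7, 119.6, 41.4 and 66.8 TPM in non-trogocytic replicates 1 to 4 and at 40.9, 58.1, 11.3 and 43.6 TPM in trogocytic replicates 1 to 4. All 3 kinases were highest in non-trogocytic replicate 2, and their log2 differences of −0.27 ± 0.97, −0.94 ± 0.62 and −0.62 ± 0.59 were not called. Birc5, a subunit of the same complex as Aurkb, showed no such peak. It stood at 346, 464, 562 and 623 TPM in non-trogocytic replicates 1 to 4 and at 332, 664, 740.3 and 555 TPM in trogocytic replicates 1 to 4. Its means were 498 ± 121 TPM against 573 ± 177 TPM, a log2 difference of 0.17 ± 0.27. Of the checkpoint kinases, Bub1 had means of 61.5 ± 12.7 TPM against 57.2 ± 25.0 TPM, and Bub1b ranged over 0.788 to 11.7 TPM with its lowest value in trogocytic replicate 2.

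Among the chromosome and centromere genes, Top2a, the topoisomerase that untangles sister chromatids, stood at 187, 207, 284 and 303 TPM in non-trogocytic replicates 1 to 4 and at 242, 347, 374 and 212 TPM in trogocytic replicates 1 to 4. The trogocytic libraries held the 2 highest values, the groups overlapped, and the means were 245 ± 57.0 TPM against 294 ± 78.9 TPM (log2 difference 0.25 ± 0.24). Cenpa, the centromeric histone, had means of 366 ± 93.1 TPM against 328 ± 50.3 TPM. Mki67 stood at 10.1, 15.0, 12.9 and 9.01 TPM in non-trogocytic replicates 1 to 4 and at 3.68, 5.52, 15.7 and 5.80 TPM in trogocytic replicates 1 to 4. Trogocytic replicate 3 held its highest value while the other 3 trogocytic values were the lowest of the 8, and the log2 difference was −0.71 ± 0.47. The kinetochore proteins Cenpe and Cenpf ranged over 8.14 to 32.0 TPM and 9.26 to 26.7 TPM. Mki67, Cenpf and Cenpe have the longest transcripts of the members, at 10061, 11130 and 7910 bases. Across the 45 members the Spearman correlation of transcript length with mean TPM was −0.292, and across the tested genes with a length −0.365. Genes of 1 library set share depth and are not independent replicates.

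Of the 6 kinesins and spindle proteins, Tpx2, which carries Aurka to the spindle, stood at 34.8, 96.9, 89.8 and 87.9 TPM in non-trogocytic replicates 1 to 4 and at 72.7, 101, 161 and 79.3 TPM in trogocytic replicates 1 to 4. Non-trogocytic replicate 1 stood far below the other 3 of its group, and trogocytic replicate 3 was the highest. The means of Tpx2 were 77.4 ± 28.7 TPM against 104 ± 40.4 TPM, a log2 difference of 0.45 ± 0.37. Kif20a, a kinesin of cytokinesis, stood at 33.6, 78.0, 15.1 and 37.7 TPM in non-trogocytic replicates 1 to 4 and at 15.1, 17.6, 26.8 and 41.7 TPM in trogocytic replicates 1 to 4. Like the kinases it was highest in non-trogocytic replicate 2, and its log2 difference was −0.57 ± 0.49. Kif11, the motor that separates the spindle poles, ranged over 52.0 to 106 TPM, Kif23 over 18.6 to 45.3 TPM, Nusap1 over 42.1 to 95.8 TPM and Prc1, which bundles the midzone, over 72.0 to 153 TPM. The log2 differences of these 4 lay between 0.013 ± 0.28 for Nusap1 and 0.18 ± 0.34 for Kif23.

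The pair that ends mitosis differed in its pattern. Cdc20, the activator of the anaphase-promoting complex, stood at 59.2, 227, 117 and 139 TPM in non-trogocytic replicates 1 to 4 and at 82.8, 119, 107 and 166 TPM in trogocytic replicates 1 to 4. Ube2c, the ubiquitin-conjugating enzyme that works with that complex, stood at 129, 211, 174 and 248 TPM in non-trogocytic replicates 1 to 4 and at 169.9, 242, 227 and 172 TPM in trogocytic replicates 1 to 4. Cdc20 was highest in non-trogocytic replicate 2 and Ube2c in non-trogocytic replicate 4, and both were lowest in non-trogocytic replicate 1. The log2 differences were −0.080 ± 0.38 and 0.11 ± 0.23.

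**Figure D3:**
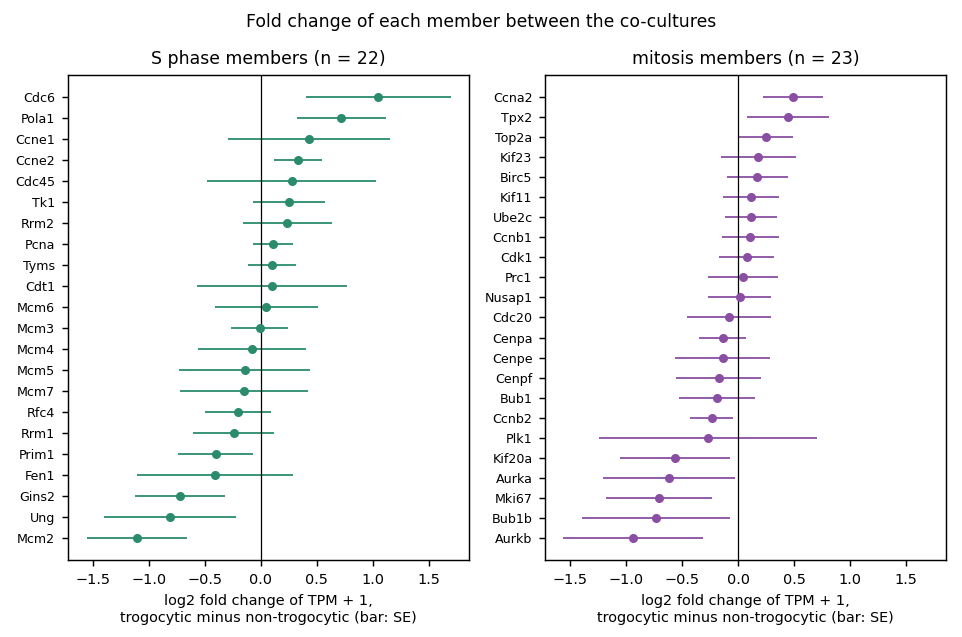
Log2 difference of TPM + 1 (horizontal axis, trogocytic minus non-trogocytic) for each S phase member (left) and mitosis member (right), with bars of 1 SE from limma. The differences run from −1.11 for Mcm2 to 1.05 for Cdc6, with as many S phase members above 0 as below.

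Averaged per library, the S phase and mitosis members followed each other across libraries of both groups. The S phase level, the mean log2(TPM + 1) of the 22 genes, was 4.60, 6.205, 5.13 and 5.59 in non-trogocytic replicates 1 to 4 and 5.01, 5.42, 5.57 and 5.42 in the trogocytic ones. The mitosis level of the 23 genes was 5.48, 6.47, 5.98 and 6.37 against 5.57, 6.09, 6.11 and 6.03. Non-trogocytic replicate 1 was lowest and replicate 2 highest in both, and trogocytic replicate 1 was the lowest of its group in both. The group means of the S phase level were 5.38 ± 0.68 and 5.36 ± 0.24 (SD, n = 4), a difference of −0.027. Those of the mitosis level were 6.07 ± 0.45 and 5.95 ± 0.26, a difference of −0.12. Without non-trogocytic replicate 1 the differences were −0.29 and −0.32, and without non-trogocytic replicate 2 they were 0.25 and 0.010. The S phase difference was also above 0 when non-trogocytic replicate 4 (0.043) or trogocytic replicate 1 (0.088) was left out, and the mitosis difference when trogocytic replicate 1 was (0.0063), so the sign of each turned on single libraries of both groups. No test is given for these averages because the members were chosen with results of these data known.

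The balance of S phase against mitosis varied little among the trogocytic co-cultures. The S phase level less the mitosis level was −0.56, −0.67, −0.54 and −0.61 in trogocytic replicates 1 to 4, and −0.88, −0.26, −0.84 and −0.78 in the non-trogocytic ones. Non-trogocytic replicates 1, 3 and 4 thus lay below all 4 trogocytic values and replicate 2 lay above them. The means were −0.69 ± 0.29 and −0.60 ± 0.056, a difference of 0.094, and 0.24 without non-trogocytic replicate 2. With a linear trend on transcript GC content removed from each library, non-trogocytic replicate 2 stood at −0.34 and still lay above the trogocytic values. In summed TPM, which the abundant genes dominate, the S phase members made up 1960 ± 540 and 1947 ± 277 TPM and the mitosis members 2801 ± 657 and 2856 ± 515 TPM.

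On the epithelial level, 1 of 45 members, Fen1, passed the test by limma, and 43 of 45 slopes were above 0. That level, the mean log2(TPM + 1) of 16 colon epithelium genes, was 5.25, 6.69, 5.75 and 6.21 in non-trogocytic replicates 1 to 4 and 5.76, 6.03, 5.71 and 5.96 in the trogocytic ones. The limma slope on it, with the group in the model, was thus above 0 for 95.6% of the members and for 60.0% of all tested genes, with a median of 0.73 and 0.18 log2 units per unit. The median was 1.16 for S phase (21 of 22 above 0) and 0.54 for mitosis (22 of 23 above 0). The 2 members with negative slopes were Ccne2 at −0.25 ± 0.25 and Cenpf at −0.38 ± 0.48. The slope of Fen1 was 2.66 ± 0.35 (adjusted p = 0.0374), where 0.254% of all tested genes were called, all 29 of them higher with the epithelial level. At an unadjusted p below 0.05 there were 15 members, all with positive slopes (9 of S phase, 6 of mitosis), against 10.7% of all tested genes in that direction. The next smallest adjusted p-values were those of Tk1 at 1.12 ± 0.20 (0.0678), Rrm2 at 1.42 ± 0.26 (0.0687), Rrm1 at 1.26 ± 0.23 (0.0708) and Cdc20 at 1.29 ± 0.26 (0.0909). Plk1 had the steepest slope of the members, 3.12 ± 0.82 (0.138).

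The call of Fen1 was lost when any 1 of the 8 libraries was left out, with adjusted p from 0.0520 to 0.352 by limma, and over all alternatives it ran from 0.0170 to 0.784 while the slope of Fen1 ran from 2.02 to 3.26. With median-of-ratios scaling, which moved the median slope of all tested genes from 0.18 to −0.008, the slope was above 0 for 36 of 45 members with a median of 0.685, and Fen1 was not called (adjusted p = 0.0951). With the replicate number as a block it was above 0 for 33 of 45 members, with a median of 0.487, and without non-trogocytic replicate 1 also for 33 of 45, with a median of 0.445. Without non-trogocytic replicate 2 it was above 0 for 42 of 45, with a median of 0.90. The medians of S phase and mitosis were then close, at 0.95 and 0.88. With the single gene Epcam in place of the list, the slope was above 0 for all 45. The medians of S phase and mitosis were again close, at 1.09 and 1.00.

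On the leukocyte level no member passed the test by limma, and 41 of 45 slopes were below 0. That level, over 12 genes, was 7.10, 5.81, 5.95 and 4.68 in non-trogocytic replicates 1 to 4 and 6.81, 5.43, 5.13 and 6.58 in the trogocytic ones. The slope on it was thus below 0 for 91.1% of the members, with a median of −0.33, and for 54.5% of all tested genes, with a median of −0.037. Of all tested genes 1.73% were called by limma, 1.45% as higher and 0.28% as lower with that level. At an unadjusted p below 0.05 there were 13 members, all with negative slopes (4 of S phase, 9 of mitosis), against 6.88% of all tested genes in that direction. The smallest adjusted p-values were those of Birc5 at −0.42 ± 0.10 (0.0841), Ccnb1 at −0.40 ± 0.099 (0.0842), Ube2c at −0.36 ± 0.092 (0.0967) and Rfc4 at −0.45 ± 0.12 (0.102). With the replicate number as a block the slope was above 0 for 12 of 45 members and the median was −0.16, and without non-trogocytic replicate 1 these were 11 of 45 and −0.24. With Ptprc in place of the list, Fen1 was called lower (adjusted p = 0.0262). TPM sums to the same total in every library, so both slopes are those of shares of the RNA. The 2 levels also moved against each other. The leukocyte slope was below 0 for 14 of 15 tested colon epithelium genes, and the epithelial slope above 0 for 1 of 12 leukocyte genes. The levels were not fitted together, so the 2 sets of slopes are not separate results.

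**Figure D4:**
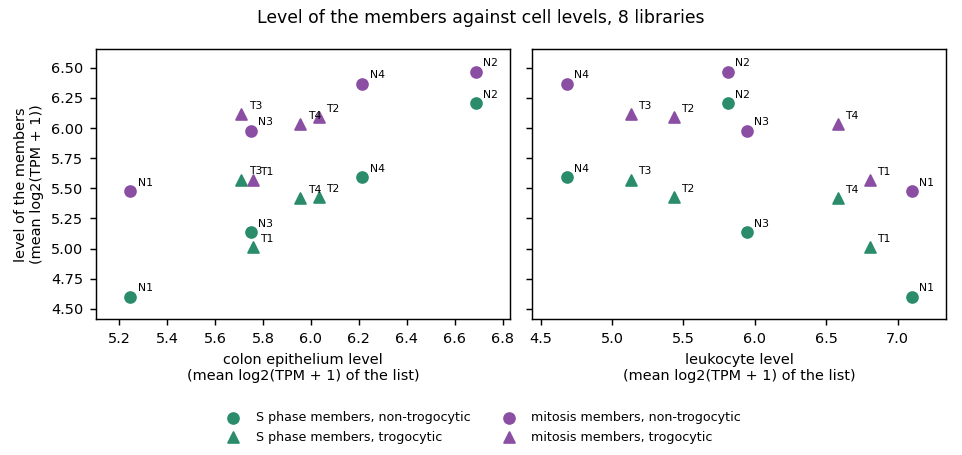
Mean log2(TPM + 1) of the S phase (green) and mitosis (purple) members, vertical axis, against the epithelial (left) and leukocyte (right) level in the 8 libraries; circles are non-trogocytic (N) and triangles trogocytic (T), numbered by replicate. Both member levels are lowest in N1 and highest in N2, which hold the lowest and the highest epithelial level.

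Taken against the epithelial level of the same library, the S phase level varied less among the non-trogocytic libraries and no less among the trogocytic ones. Its SD over the 4 libraries went from 0.68 to 0.074 in the first group and from 0.24 to 0.26 in the second. The S phase level ranged over 1.61 log2 units across the 8 libraries, and the S phase level less the epithelial level over 0.61. The latter was −0.65, −0.48, −0.61 and −0.62 in non-trogocytic replicates 1 to 4 and −0.75, −0.61, −0.14 and −0.54 in the trogocytic ones. Trogocytic replicate 3 stood highest, and the other 7 libraries lay between −0.75 and −0.48. For mitosis the range was 0.99 before and 0.63 after, and trogocytic replicate 3 was again highest, at 0.40. The group means after the epithelial level was taken off were −0.59 ± 0.074 and −0.51 ± 0.26 for S phase, and 0.098 ± 0.22 and 0.087 ± 0.24 for mitosis (SD, n = 4).

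The 2 libraries with the highest leukocyte level, both numbered replicate 1, were the low ones for the members. They were picked out after the values were seen. Trogocytic replicate 4 had a leukocyte level of 6.58, near the 6.81 of trogocytic replicate 1, and an S phase level of 5.42. Trogocytic replicate 2 had the same S phase level, 5.42, at a leukocyte level of 5.43. Non-trogocytic replicate 4, with the lowest leukocyte level (4.68), was not the highest for the members. Of the 45 members, 34 (75.6%) had their lowest value in non-trogocytic replicate 1 or trogocytic replicate 1, and 0 had their highest there, against 35.1% and 25.5% of all tested genes. The summed TPM of 11 mitochondrially encoded genes was also highest in these 2 libraries, at 10610 and 11340 against 3117 to 8535 in the other 6. Whether this had a part in the members' levels was not tested. Non-trogocytic replicate 2 held the highest value of 19 members (42.2%), against 21.8% of all tested genes, and of these 14 were S phase genes and 5 mitosis genes.

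Of the 19 members highest in non-trogocytic replicate 2, 13 had a transcript GC content of 50% or more and 6 a lower one. The excess of that library, its log2(TPM + 1) minus the mean of the other 7, had a median of 1.35 for the 16 members with a GC content of 50% or more and of 0.18 for the other 29. For all 9551 tested genes with a GC value the medians were 0.59 and 0.080. The boundary of 50% was chosen after the values were seen. Non-trogocytic replicate 2 was thus the highest library of 13 of 16 members at or over 50% and of 6 of 29 below it. Over all tested genes with a GC value it was the highest of 1415 of 4095 and of 887 of 5456. Among S phase members the median excess was 1.35 at or over 50% and 0.66 below it, and among mitosis members 1.40 and 0.11. Members at or over 50% also had a lower median level (20.9 against 90.4 TPM) and a larger median SD (0.88 against 0.45). The excess was 3.21 for Plk1 (GC 56.0%), 2.35 for Fen1 (53.8%) and 2.10 for Aurkb (52.5%), and −0.64 for Ccne2 (36.3%) and −0.39 for Top2a (43.4%). Exceptions stood on both sides. Ube2c had a GC content of 55.5% and an excess of 0.15. The 6 members under 50% that were highest in this library were Rrm1 (GC 44.4%, excess 1.25), Mcm4 (45.5%, 1.42), Rrm2 (46.0%, 1.04), Mcm6 (47.3%, 1.497), Kif20a (48.4%, 1.61) and Cdc6 (49.4%, 1.59). Across the 45 members the Spearman correlation of GC content with the excess was 0.678, and across the 9551 genes 0.339. All points share that library and its depth, so these are descriptions.

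**Figure D5:**
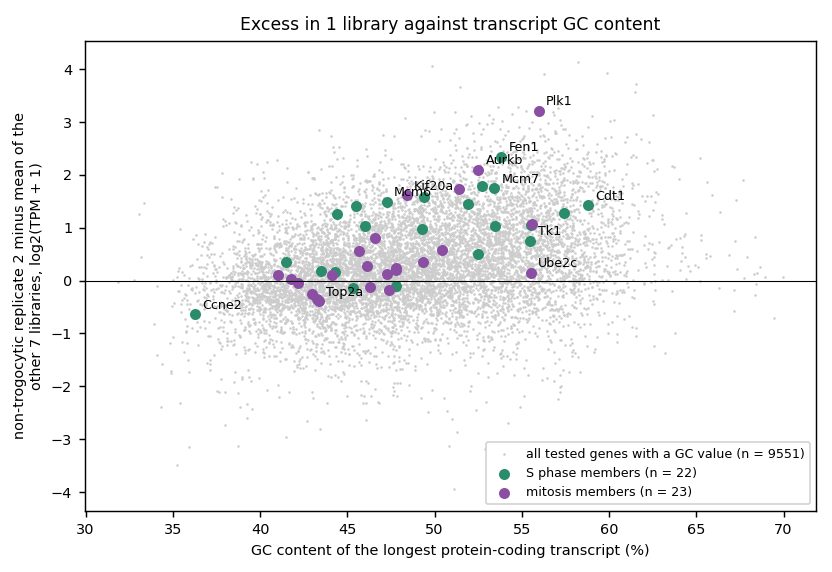
Excess of non-trogocytic replicate 2 over the mean of the other 7 libraries (vertical axis, log2(TPM + 1)) against GC content of the longest protein-coding transcript (horizontal axis, %) for all 9551 tested genes with a value (grey), S phase members (green) and mitosis members (purple). Plk1, Fen1 and Aurkb lie at the upper right with an excess above 2, and Ccne2 lies at the lower left below 0.

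Among the S phase members the level was lower at higher GC content. The Spearman correlation of GC content with mean TPM was −0.669 across the 22 S phase members, −0.021 across the 23 mitosis members and −0.181 across all tested genes with a value. The S phase members at or over 50% had a median of 18.7 TPM and those below it of 100.7 TPM. With the linear GC trend of each library removed, an alternative added after the data were seen, no member was called between the groups and Fen1 kept its slope on the epithelial level (adjusted p = 0.0263 by limma). The median epithelial slopes of S phase and mitosis were then 1.14 and 0.87, nearer to each other than before.

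Other genes of the cell cycle were not called between the groups by limma either, with 0 calls among the tested genes of 4 further lists. Of all tested genes 0.0525% were called (6 of 11433), and at that share 0 calls do not set these lists apart. Of 40 tested further replication genes, 24 were higher and 16 lower in the trogocytic co-cultures (median 0.12, with 1 at an unadjusted p below 0.05, against 4.59% of all tested genes). That gene was Orc2, an origin recognition subunit, at 79.1, 90.4, 86.0 and 121 TPM in non-trogocytic replicates 1 to 4 and at 137, 158, 159 and 130.2 TPM in trogocytic replicates 1 to 4. All 4 trogocytic values of Orc2 lay above all 4 non-trogocytic values, where 2.68% of all tested genes did not overlap in either direction. Orc2 was named for its small p-value, so this separation is no added support. Its means were 94.2 ± 18.6 TPM against 146 ± 14.7 TPM, with a log2 difference of 0.64 ± 0.20 and an adjusted p of 0.939 by limma. Orc3, its partner, had means of 30.3 ± 18.8 TPM against 45.5 ± 6.05 TPM. The most abundant of the list, Rpa3 (a subunit of the single-strand binding protein) and Dctpp1 (a nucleotide hydrolase), had log2 differences of −0.062 ± 0.22 and 0.0066 ± 0.22.

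Of 51 tested further mitosis genes, 34 were higher and 17 lower (median 0.14, with 0 at an unadjusted p below 0.05, against the same 4.59%). Cks1b, a Cdk subunit, stood at 1113, 1076, 1273 and 1353 TPM in non-trogocytic replicates 1 to 4 and at 1039, 1541, 1585 and 1319 TPM in trogocytic replicates 1 to 4, and Cdca8, of the chromosomal passenger complex, had means of 286 ± 36.8 TPM against 308 ± 52.1 TPM. The smallest p-values were those of Ndc80, of the kinetochore, with means of 76.5 ± 22.0 TPM against 49.0 ± 13.9 TPM, and Ncapd2, of condensin, with means of 5.84 ± 1.75 TPM against 2.66 ± 2.19 TPM. By slope, Tacc3 was called higher with the epithelial level (1.81 ± 0.26, adjusted p = 0.0374) and Spc25 lower with the leukocyte level (−0.49 ± 0.092, adjusted p = 0.0316) by limma. Both were singled out after their values were seen. Of all tested genes, 0.254% were called higher with the epithelial level and 0.28% lower with the leukocyte level. The call of Tacc3 was lost without any 1 of the 8 libraries (adjusted p 0.0548 to 0.390 by limma) and in 12 of 15 alternatives in all. That of Spc25 was lost in 7 of the 8 cases (all but non-trogocytic replicate 2, over a range of 0.0266 to 0.190) and in 11 of 15 alternatives. The epithelial slope was above 0 for 37 of 40 further replication genes and 42 of 51 further mitosis genes, and the leukocyte slope below 0 for 37 and 44 of them. Over all tested genes these shares were 60.0% and 54.5%.

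Of 13 tested drivers of G1, 5 were higher and 8 lower (median −0.11, with 1 at an unadjusted p below 0.05, against 4.59% of all tested genes). Ccnd1, cyclin D1, had means of 131 ± 80.3 TPM against 128 ± 34.9 TPM and Cdk4, its kinase, of 137 ± 72.0 TPM against 119 ± 16.7 TPM. Cdk6 had means of 75.3 ± 12.3 TPM against 114 ± 26.2 TPM (log2 difference 0.57 ± 0.24), and Ccnd3 of 2.50 ± 1.67 TPM against 6.64 ± 3.99 TPM. The epithelial slope was above 0 for all 13 of them, against 60.0% of all tested genes. Of 18 tested CDK inhibitors and pocket proteins, 8 were higher and 10 lower (median −0.051, with 2 at an unadjusted p below 0.05, against the same 4.59%). These were Cdkn1a and Cdkn2a. Cdkn1a, which encodes the inhibitor p21, stood at 37.6, 43.6, 35.7 and 40.1 TPM in non-trogocytic replicates 1 to 4 and at 25.9, 19.2, 16.0 and 32.5 TPM in trogocytic replicates 1 to 4. Cdkn2a, which encodes the Ink4a and Arf proteins, stood at 30.0, 44.7, 56.0 and 32.0 TPM in non-trogocytic replicates 1 to 4 and at 11.5, 34.9, 17.1 and 22.0 TPM in trogocytic replicates 1 to 4. All 4 non-trogocytic values of Cdkn1a lay above all 4 trogocytic values, where 2.68% of all tested genes did not overlap, and those of Cdkn2a overlapped. Both genes were named for their small p-values, so the separation of Cdkn1a is no added support. The log2 differences were −0.77 ± 0.29 and −0.96 ± 0.38, and neither was called (adjusted p = 0.9998 for both by limma). Btg1, an antiproliferative gene, had means of 235 ± 128 TPM against 307 ± 124 TPM, and Lin37, of the complex that represses cell cycle genes at rest, of 58.0 ± 12.7 TPM against 48.1 ± 10.8 TPM.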

How the data were processed

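Polyadenylated RNA of 8 co-cultures was measured, 4 in each group, as paired-end reads of 100 bp made with a low-input kit, per the labels' protocols. The builds GRCm38 and mm10 and the tools StringTie 1.3.3, HISAT2 and DESeq (version 2) are those of the submitters' processing notes. For annotation and strand setting the sources used here give nothing. Per the file headers, each table lists for every gene its coverage (mean depth, unscaled) beside FPKM and TPM. The authors' FPKM divides coverage by the Gb aligned, and the authors' TPM sums to 1 fixed total in every library. Coverage divided by FPKM gave the depth.

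TPM was summed for the 12 gene IDs on more than 1 row. Gene models of GENCODE M21 had the same version and coordinates for 49035 IDs and gave GC content and overlaps. Members and lists were chosen with earlier results of these data known. Tests used limma 3.58.1 (R 4.3.3) on log2(TPM + 1), where the added 1 understates changes of low genes, with the variance trended on the mean. They covered genes with at least 1 TPM in 4 or more libraries, two-sided, with Benjamini-Hochberg adjustment over all 11433, called below 0.05. Slopes were fitted on the level of a marker list with the group in the model. Named are all members, and from each other cell cycle list the 2 most abundant genes and the 2 of smallest p. Tested on simulated data of the 11433 genes, the group fit recovered 52% of changes of 2 log2 units and 4% of changes of 1 unit. At a slope of 2 units the epithelial fit recovered 34% and the leukocyte fit 78%. The simulated noise was normal and independent between genes, with each gene's SD over the 8 libraries. For each size 50 genes drawn at random were changed, so these rates are not those of the members. Alternatives were the pseudocount, filter, unit, scaling, variance model, covariates, block, single marker genes and leaving out each library. Removal of the GC trend was added after seeing the data. Counts of reads were not analysed here.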

Additional observations from a re-analysis of the deposited data

Results flagged for a closer look

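Each of the 45 members and 5 library levels was looked at in each group of 4 libraries for a value far from the other 3, by Dixon's test at 95%. Chance alone gives such a value in about 1 in 20 groups, and 3 of the 100 groups examined had one. Tpx2 was at 34.8 TPM in non-trogocytic replicate 1, while the other 3 of its group were at 87.9 to 96.9 TPM. The mitosis level of trogocytic replicate 1 was 5.57, while the other 3 were at 6.03 to 6.11. The S phase level less the mitosis level was −0.26 in non-trogocytic replicate 2, while the other 3 were at −0.88 to −0.78. That library also had the steepest rise of its deviation with GC content, 0.0428 log2 units per percent, against −0.0181 to 0.0118 in the other 7. With the linear GC trend of each library removed, the value was −0.34, while the other 3 of its group were at −0.85 to −0.78. The cause of the value was not tested.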

How the results depend on the processing

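Between the groups, 0 members were called under every alternative run, with the smallest adjusted p by limma at 0.678 (Mcm2, with the leukocyte level as a covariate). The count over all genes, 6, was 2 with a pseudocount of 0.01, 1 with no filter, 1 with no mean-variance trend, 12 with the leukocyte covariate, and 0 to 3 when 1 library was left out. Genes called on the epithelial level, 29 with 1 member, were 0 with 0 members at a pseudocount of 0.1, with median-of-ratios scaling and without any 1 library, and 62 with 3 members (Fen1, Rrm2, Tk1) at a mean TPM of at least 5. With Epcam in place of the list 0 members were called. Genes called on the leukocyte level, 198 with 0 members, were 102 with no group term, 103 with 1 member (Fen1) for Ptprc, and 12 (without non-trogocytic replicate 1) to 266 when 1 library was left out. They were 20 without non-trogocytic replicate 4, 33, 101, 96 and 126 without trogocytic replicates 1, 2, 3 and 4. When 1 library was left out, the group difference of the S phase level ran from −0.29 to 0.25, of the mitosis level from −0.32 to 0.010, and of S phase less mitosis from 0.032 to 0.24. Without non-trogocytic replicate 1, 12 members changed the sign of their group difference. FPKM changed 3 and the epithelial covariate 5.

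Whether same-numbered libraries were paired is not given by the labels, and these correlations cannot settle it. Deviations of same-numbered libraries correlated at 0.235, 0.0054, 0.0623 and −0.0932 for replicates 1 to 4. Those of differently numbered libraries ran from −0.214 to 0.166. Replicate 1 had the highest value of all pairs, and not every library correlated best with its own number. With the replicate number as a block, 0 genes and 0 members were called in all 3 comparisons, also for the groups with scaling added. At a few TPM, members rest on few reads, and differences within their spread were not detectable here.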
